A study of Mus musculus with 8 samples.

Results

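The genes described here make cholesterol or regulate that synthesis, take sterols up and move them inside the cell, or export them. They were a list of 34 mouse genes, picked by gene symbol with earlier results of these data known. The list held 18 synthesis enzymes from acetyl-CoA to cholesterol and 5 regulators of the SREBP transcription factors. It also held 4 genes of uptake and intracellular transport, and 7 genes of the LXR receptors and their efflux targets. Of the 34 genes, 29 had a probe on the arrays, which carried a probe for 16593 genes. After probes near background were left out, 27 of the listed genes remained among 8885 genes tested. Abca1 and Abcg1, the main exporters of cholesterol, had a probe that was not detected on any of the 8 arrays. Acat2, Mvk, Fdft1, Npc1 and Nr1h2 had no probe.

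The arrays measured RNA of NIH 3T3 cells, a fibroblast line from mouse embryos, after 24 h in 1 of 3 media: unused Claycomb media (3 arrays), cardiomyocyte media, meaning Claycomb media taken from cultured HL-1 cells (3 arrays), or media supernatant, meaning cardiomyocyte media after ultracentrifugation for 2 h (2 arrays). HL-1 is a beating line from a tumour of mouse atrium. Slower spins had cleared debris from the supernatant before the ultracentrifugation, and no array had centrifuged unused media. The 3 unused arrays and replicate 1 of each other group lay on chip 1, while chip 2 carried the remaining arrays, replicates 2 and 3 with cardiomyocyte media and replicate 2 with media supernatant. The study's methods took the RNA of a cell group from several wells without saying whether these were separate experiments, so a p-value here covers the variation among these arrays and no more.

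Cells make cholesterol from acetyl-CoA through mevalonate, the isoprenoid farnesyl diphosphate, squalene and lanosterol. When sterol in the membrane of the endoplasmic reticulum is scarce, SCAP escorts the SREBP transcription factors to the Golgi, where they are cut and released to activate these genes, and INSIG proteins hold that escort back when sterol is plentiful. LXR receptors respond to oxidised sterols and turn on genes of efflux and lipoprotein remodelling. SREBP2 commonly works beside the factor NF-Y at the promoters of synthesis enzymes.

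Promoter windows reached from 250 bases before to 50 after each RefSeq start (GRCm38.p6), and 27 of the 34 listed genes had at least 1. Abcg1, Abcg4, Fdft1, Fdps, Npc1, Sqle and Stard4 had none. These 27 genes, and the 15 synthesis enzymes among them, are therefore not the same as the 27 genes and 15 enzymes tested on the arrays. The windows were searched on both strands for TCACNCCA, the core of the sterol regulatory element, for CCAAT, the letters NF-Y binds, and for CACGTG, an E-box that SREBP can also bind. CCAAT occurred for 22 of the 27 genes (81.5%), and for 14 of the 15 synthesis enzymes with a window (93.3%), against 41.1% of all 27025 genes with a window and 44.1% of the 7250 genes with a window that were tested on the arrays. The sterol core occurred for 4 of the 27 (14.8%), Hmgcs1, Msmo1, Srebf2 and Apoe, against 4.97% and 4.34%. CACGTG occurred for 6 of the 27 (22.2%), against 8.09% and 11.9%. A match describes letters only and is not a binding site.

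The upstream stretches that hold these letters follow for 8 genes, read 5′ to 3′ on the gene's own strand, with the sterol core and CCAAT (or ATTGG, the same letters on the other strand) in capitals. Hmgcs1, Msmo1 and Srebf2 show the sterol core beside CCAAT. Mvd, Idi1, Lss and Insig1 show CCAAT without the core, and Ebp, the enzyme whose log2 for media supernatant over unused media was closest to 0, shows it as well.
Hmgcs1 (chr13:119690160-119690236, plus strand): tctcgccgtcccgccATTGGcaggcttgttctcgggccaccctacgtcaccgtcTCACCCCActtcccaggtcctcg
Msmo1 (chr8:64733719-64733770, minus strand): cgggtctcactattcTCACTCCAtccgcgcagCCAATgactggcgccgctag
Srebf2 (chr15:82147092-82147153, plus strand): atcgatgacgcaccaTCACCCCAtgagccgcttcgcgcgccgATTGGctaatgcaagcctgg
Mvd (chr8:122443430-122443497, minus strand): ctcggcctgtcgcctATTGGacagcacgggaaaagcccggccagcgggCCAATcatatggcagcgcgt
Idi1 (chr13:8885546-8885605, plus strand): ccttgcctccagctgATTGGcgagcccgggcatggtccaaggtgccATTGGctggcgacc
Lss (chr10:76531528-76531562, plus strand): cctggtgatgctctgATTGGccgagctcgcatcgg
Insig1 (chr5:28071181-28071215, plus strand): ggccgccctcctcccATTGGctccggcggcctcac
Ebp (chrX:8193548-8193582, minus strand): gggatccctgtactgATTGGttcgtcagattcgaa

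**Figure D1:**
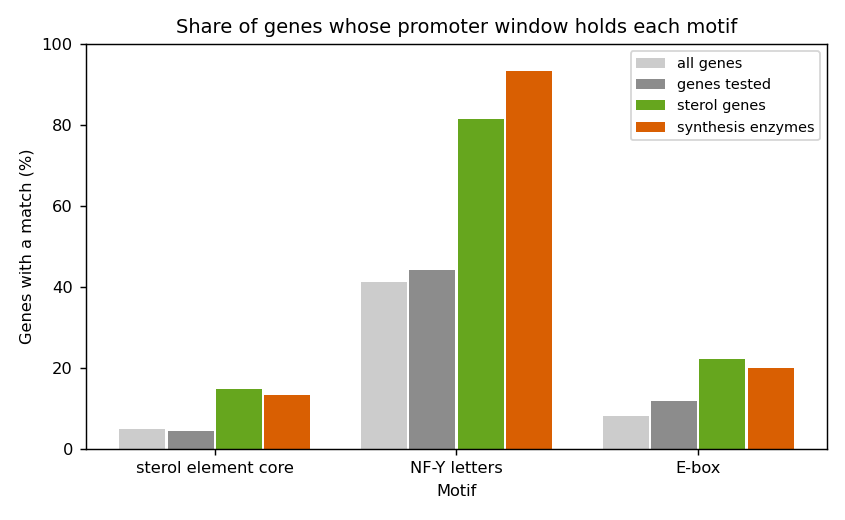
The share of genes (in percent) with the sterol element core, the NF-Y letters CCAAT and the E-box in their promoter window, for all genes, genes tested on the arrays, the listed sterol genes and the synthesis enzymes among them. The tallest bars are those of CCAAT in the sterol genes (81.5%) and the synthesis enzymes (93.3%), against 41.1% of all genes.

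With media supernatant, 6 of the 15 synthesis enzymes tested rose over unused media and 9 did not pass, and 3 of the 15 rose over cardiomyocyte media. Of the 27 genes tested, 8 rose with media supernatant over unused media and none fell: Hmgcs1, Mvd, Fdps, Sqle, Hsd17b7, Dhcr7, Insig1 and Insig2. The 8 are 29.6% of the 27, while 0.732% of all genes tested passed as higher and 1.44% as lower in that comparison. With cardiomyocyte media 3 rose over unused media, Fdps, Dhcr7 and Lpcat3 (11.1%, against 4.01% of all genes higher and 4.36% lower). With media supernatant over cardiomyocyte media 3 rose, Mvd, Msmo1 and Hsd17b7 (11.1%, against 1.76% higher and 3.14% lower). A gene passed when its adjusted p, from the linear model of limma with Benjamini-Hochberg adjustment over all 8885 genes, was under 0.05. Without adjustment 18, 9 and 13 of the 27 were higher at p under 0.05 in these 3 comparisons, in that order, beside 5.48%, 11.8% and 7.51% of all genes, and 0, 1 and 0 were lower, beside 6.4%, 13.3% and 7.68%. Both comparisons with unused media share its 3 arrays. Because the list was chosen with earlier results of these data known, these shares describe the listed genes and do not test them.

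The counts depended on single arrays, among the listed genes as among all genes. Over unused media, media supernatant gave 0 listed genes without either of its arrays, when 0 of all genes were higher, and 3, 2 and 2 without replicates 1, 2 and 3 of unused media, beside 30, 33 and 29 of all genes in place of 65. Leaving out replicate 1, 2 or 3 of cardiomyocyte media gave 12, 5 and 8 there, beside 86, 40 and 53 of all genes. For cardiomyocyte media over unused media the count was 1, 1 and 0 without replicates 1, 2 and 3 of unused media, 4, 2 and 0 without its own replicates 1, 2 and 3, and 2 without either supernatant array, while all genes gave 186 to 689 in place of 356. Between media supernatant and cardiomyocyte media it was 0 without either supernatant array (54 and 57 of all genes, in place of 156), 5, 1 and 3 without replicates 1, 2 and 3 of cardiomyocyte media, and 1, 1 and 3 without those of unused media. With 1 supernatant array left, its spread was taken from the remaining groups.

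The median log2 fold change over the 27 genes was 0.75 for media supernatant over unused media, 0.22 for cardiomyocyte media over unused media and 0.46 for media supernatant over cardiomyocyte media, beside 0.00, −0.01 and 0.02 over all genes tested. All 15 enzymes tested had a log2 above 0 for media supernatant over unused media, with a median of 0.97 beside 0.42 for the 12 other genes, and this count of 15 was the same under each of 5 other backgrounds or scalings. With chip as a block it was 14, since Ebp came to −0.01. Over cardiomyocyte media 14 of the 15 were above 0 with media supernatant, Ebp excepted, with a median of 0.77 beside 0.10 for the 12 others. In cardiomyocyte media over unused media 12 were above 0 (median 0.22), and Pmvk, Msmo1 and Sc5d below. With median scaling, which moved the median of all genes to 0.21 in that comparison and to 0.26 for media supernatant over unused media, Msmo1 also came above 0.

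**Figure D2:**
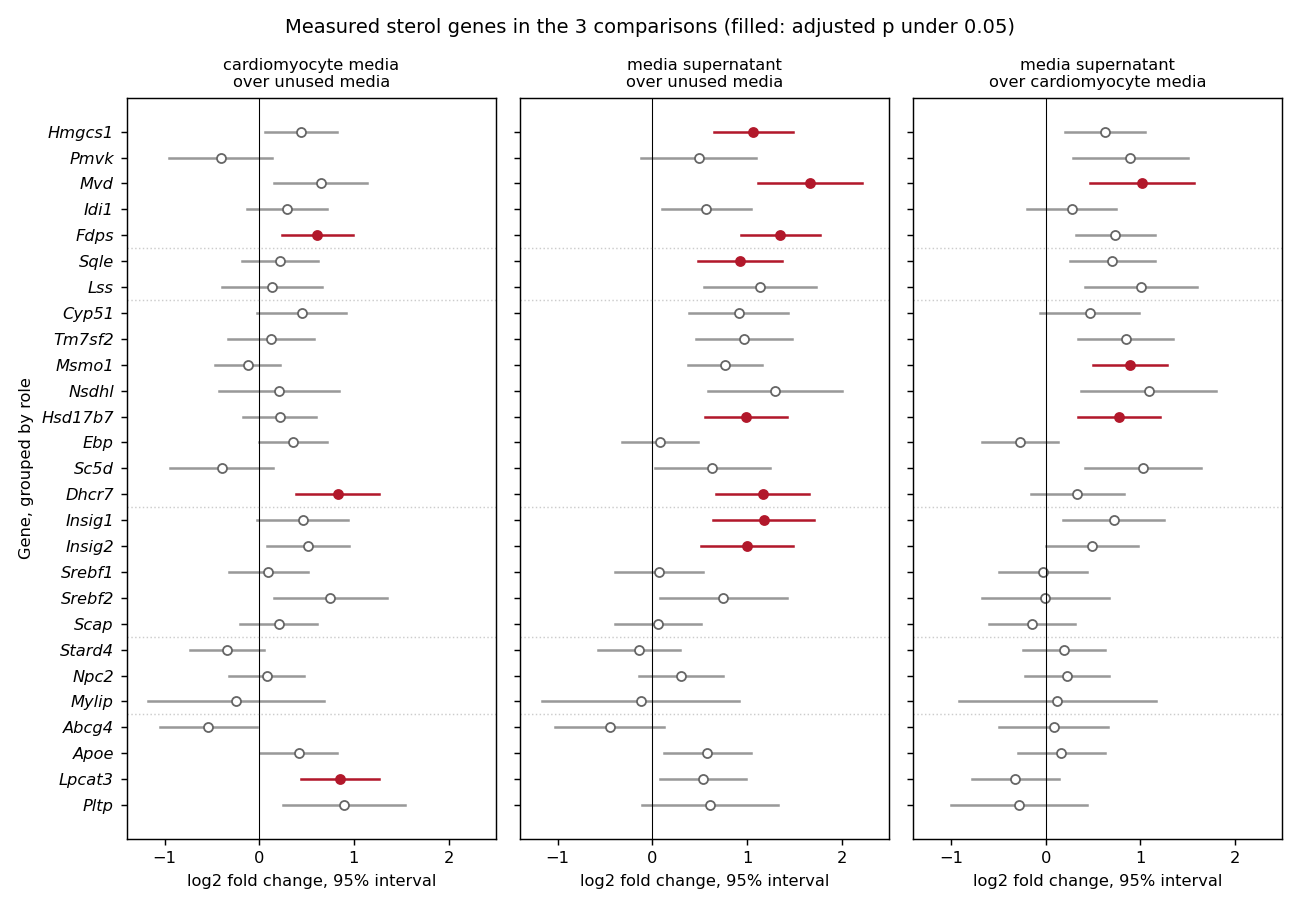
Log2 fold changes (x axis) of the 27 genes tested (y axis, grouped by role from the mevalonate steps at the top to LXR and efflux genes at the bottom) in the 3 comparisons, with 95% intervals from limma. Filled red points mark the 3, 8 and 3 genes with an adjusted p under 0.05, and every one of them lies to the right of 0.

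In the mevalonate steps, 3 of 5 tested enzymes rose with media supernatant. Hmgcs1, the synthase that makes HMG-CoA, had signals (fluorescence above background, after normalization) of 6564, 6245 and 4995 with unused media, 8738, 7383 and 7964 with cardiomyocyte media, and 12016 and 12711 with media supernatant. The 3 groups did not overlap, with unused media lowest and media supernatant highest. Hmgcs1 rose 2.09-fold with media supernatant over unused media (log2 1.07, SE 0.19, adjusted p = 0.0160), and its log2 of 0.44 with cardiomyocyte media did not pass (adjusted p = 0.141). Folds were computed on the signal plus 16, which lowers the folds of dim probes.

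Mvd, the decarboxylase that forms isopentenyl diphosphate, had signals of 233, 244 and 165 with unused media, 341, 256 and 447 with cardiomyocyte media, and 665 and 745 with media supernatant. Its groups did not overlap either, and it was 3.17-fold higher with media supernatant than with unused media (log2 1.67, SE 0.25, adjusted p = 0.00791), the largest of the 27 in that comparison. Mvd was also 2.02-fold higher with media supernatant than with cardiomyocyte media (log2 1.02, SE 0.25, adjusted p = 0.0408).

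Fdps, which makes farnesyl diphosphate at the branch towards sterols and other isoprenoids, had signals of 2887, 3658 and 3336 with unused media, 5248, 4617 and 5248 with cardiomyocyte media, and 7650 and 9186 with media supernatant. The steps from group to group were again apart on every array. Fdps rose over unused media with cardiomyocyte media (1.53-fold, log2 0.61, SE 0.17, adjusted p = 0.0492) and with media supernatant (2.55-fold, log2 1.35, SE 0.19, adjusted p = 0.00662), while media supernatant over cardiomyocyte media (log2 0.74) was just short of the threshold (adjusted p = 0.0521). The call with cardiomyocyte media was lost in 15 of 23 alternative settings (log2 0.52 to 0.92 over all 23). Among these were median scaling, at a log2 of 0.92, and chip as a block. It was also lost when any 1 array of unused or cardiomyocyte media was left out. The call with media supernatant over unused media was lost in 3 of 23.

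The other mevalonate enzymes had dimmer probes. Pmvk, the phosphomevalonate kinase, ran from 54.6 to 121, from 47.8 to 74.8 and from 117 to 139 with unused media, cardiomyocyte media and media supernatant, and did not pass in any comparison. Idi1, the isomerase of isopentenyl diphosphate, was detected on 7 arrays, with signals of 13.1 to 26.9, 24.8 to 31.3 and 33.4 to 43.7 in the same order, and a log2 of 0.57 for media supernatant over unused media (adjusted p = 0.321).

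**Figure D3:**
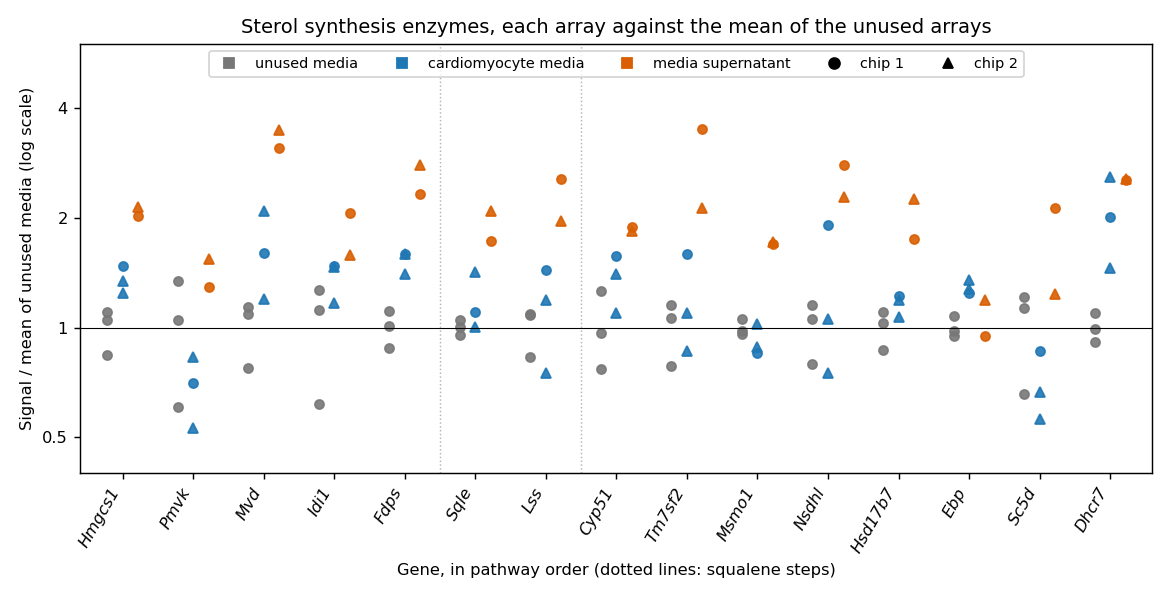
Signal of each array divided by the mean of the unused arrays (y axis, log scale) for the 15 synthesis enzymes tested (x axis, in pathway order), with colour for the media and shape for the chip. The supernatant arrays (orange) lie above every unused array for Hmgcs1, Mvd, Fdps and most later enzymes, while those of Pmvk and Ebp overlap with the unused arrays.

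At the squalene steps, Sqle, the squalene epoxidase and a rate-limiting enzyme, had signals of 2904, 2780 and 2646 with unused media, 3056, 2795 and 3951 with cardiomyocyte media, and 4787 and 5810 with media supernatant. Both supernatant arrays lay above the other 6. Sqle rose with media supernatant over unused media (1.90-fold, log2 0.92, SE 0.20, adjusted p = 0.0405), while its log2 with cardiomyocyte media was 0.22 (SE 0.18). A dimmer Sqle probe gave 1.45 and −0.47 in these comparisons, with an SE of 0.88 and 0.79, so its direction with cardiomyocyte media was opposite to that of the main probe and neither value passed.

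Lss, which closes the ring system of lanosterol, had signals of 386, 384 and 294 with unused media, 511, 267 and 423 with cardiomyocyte media, and 906 and 695 with media supernatant. Media supernatant stood apart from the other groups, which overlapped. Its log2 was 1.14 over unused media (SE 0.27, adjusted p = 0.0581) and 1.01 over cardiomyocyte media (SE 0.27, adjusted p = 0.0592), both just short of the threshold.

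Of the 8 enzymes after lanosterol, 2 rose with media supernatant over unused media. Hsd17b7, the reductase that finishes demethylation of the ring, had signals of 1324, 1038 and 1233 with unused media, 1466, 1422 and 1277 with cardiomyocyte media, and 2098 and 2695 with media supernatant. The supernatant arrays were clear of the rest, with a rise of 1.98-fold over unused media (log2 0.99, SE 0.20, adjusted p = 0.0273) and 1.71-fold over cardiomyocyte media (log2 0.77, SE 0.20, adjusted p = 0.0486), of which the latter was a log2 of 0.50 on chip 1 alone. Dhcr7, a reductase at the end of the pathway, had signals of 57.2, 68.4 and 62.0 with unused media, 126, 91.1 and 162 with cardiomyocyte media, and 159 and 160 with media supernatant. Every array of both treatments exceeded every unused array, and Dhcr7 rose 1.78-fold with cardiomyocyte media (log2 0.83, SE 0.20, adjusted p = 0.0273) and 2.24-fold with media supernatant (log2 1.16, SE 0.22, adjusted p = 0.0221). Without background correction these log2 values were 0.53 and 0.76.

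Msmo1, the methylsterol oxidase, differed between the treated groups. Its signals were 2282, 2243 and 2465 with unused media, 1984, 2380 and 2063 with cardiomyocyte media, and 3963 and 3992 with media supernatant. Unused and cardiomyocyte media overlapped while both supernatant arrays were far above them, and Msmo1 rose 1.86-fold with media supernatant over cardiomyocyte media (log2 0.89, SE 0.18, adjusted p = 0.0131). Over unused media it was just short of the threshold (log2 0.77, adjusted p = 0.0509).

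Cyp51, Tm7sf2 and Nsdhl also had their highest signals on the supernatant arrays but did not pass with their main probe. Cyp51, which demethylates lanosterol, ranged from 663 to 1088, from 944 to 1353 and from 1582 to 1624 with unused media, cardiomyocyte media and media supernatant (log2 0.91 for media supernatant over unused media, adjusted p = 0.0948). Nsdhl, the dehydrogenase of the same demethylation, ranged from 197 to 287, from 187 to 477 and from 567 to 694 (log2 1.30, adjusted p = 0.0761). Its 4 probes gave log2 values of 0.92 to 1.38 for that comparison. In a limma fit of every probe, the dimmest of the 4 passed there (log2 1.16, adjusted p = 0.0115). That probe also passed for media supernatant over cardiomyocyte media (log2 0.80, adjusted p = 0.0253). Tm7sf2, a sterol reductase, was dim and detected on 5 arrays, ranging from 14.8 to 21.8, from 16.2 to 29.9 and from 40.2 to 66.1 (log2 0.97, adjusted p = 0.0595).

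Sc5d and Ebp did not pass in any comparison either. Sc5d, a sterol desaturase, had signals of 88.7, 83.1 and 48.1 with unused media, 63.3, 48.7 and 41.0 with cardiomyocyte media, and 156 and 90.5 with media supernatant. Both supernatant arrays were above all others, though 90.5 only just exceeded 88.7. For media supernatant its log2 was 0.63 over unused media (adjusted p = 0.402) and 1.03 over cardiomyocyte media (adjusted p = 0.0624). Ebp, the sterol isomerase, had signals of 411, 424 and 468, then 541, 587 and 553, then 410 and 516 in the same order. It was the enzyme with its highest arrays in cardiomyocyte media and its supernatant arrays on either side of the unused ones, with a log2 of 0.08 for media supernatant over unused media (95% interval −0.32 to 0.49) and of 0.36 for cardiomyocyte media over unused media (adjusted p = 0.20).

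The 2 INSIG genes among the 5 regulators rose with media supernatant. Insig1, which is itself an SREBP target, had signals of 238, 209 and 199 with unused media, 233, 345 and 339 with cardiomyocyte media, and 401 and 635 with media supernatant. Its supernatant arrays were above all others, 2.26-fold over unused media (log2 1.17, SE 0.24, adjusted p = 0.0313). Other detected Insig1 probes gave log2 values of 0.88 and 1.403 in that comparison, and −0.45 and 0.26 against 0.46 of the main probe for cardiomyocyte media over unused media, none of them past the threshold. Insig2, the second retention protein, had signals of 437, 654 and 613, then 933, 793 and 706, then 1225 and 1055, with no overlap between the groups. It was 2.0-fold higher with media supernatant than with unused media (log2 1.0, SE 0.22, adjusted p = 0.0415), and its second detected probe gave 0.53 there.

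The SREBP genes and their escort did not pass in any comparison. Srebf2, which encodes SREBP2, had signals of 282, 224 and 131 with unused media, 266, 441 and 376 with cardiomyocyte media, and 310 and 401 with media supernatant, so that unused and cardiomyocyte media overlapped. Its log2 was 0.75 over unused media in both treatments (adjusted p = 0.118 with cardiomyocyte media and 0.366 with media supernatant). Srebf1, which encodes SREBP1, lay between 23.4 and 39.4 on all arrays, and Scap between 91.6 and 150, with all groups overlapping.

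**Figure D4:**
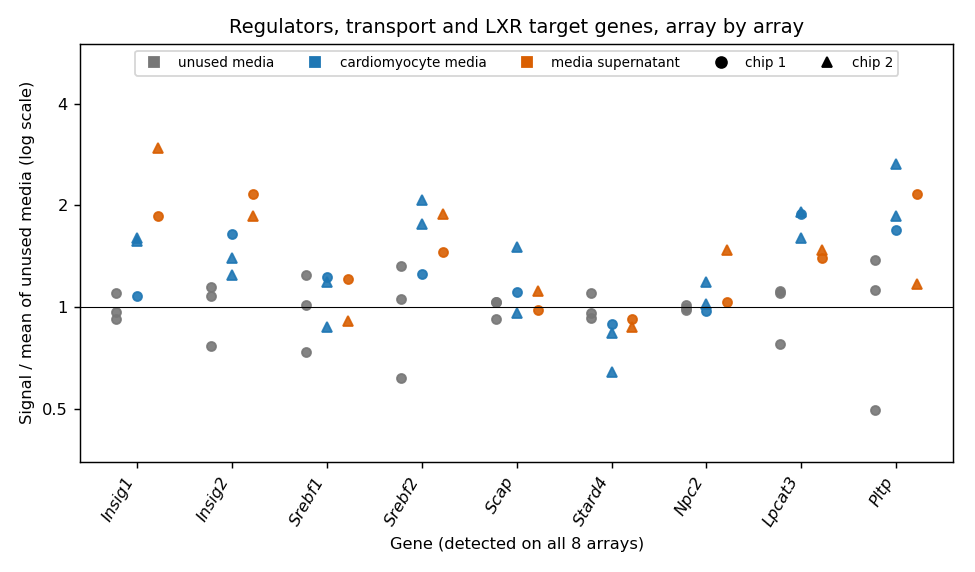
Signal of each array divided by the mean of the unused arrays (y axis, log scale) for the 9 regulators, transport and LXR genes detected on all 8 arrays (x axis), with colour for the media and shape for the chip. Both supernatant arrays exceed all others for Insig1 and Insig2, the cardiomyocyte media arrays are the highest for Lpcat3, and the groups overlap for Srebf1 and Scap.

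None of the 3 tested genes of uptake and transport passed. Stard4, a soluble sterol carrier, had signals of 720, 606 and 626 with unused media, 580, 545 and 418 with cardiomyocyte media, and 602 and 570 with media supernatant, which put every treated array below every unused array (log2 −0.34 and −0.14 over unused media, adjusted p = 0.259 and 0.821). Npc2, the lysosomal cholesterol carrier, ran from 817 to 1237 over all arrays. Mylip, which marks the LDL receptor for degradation, was detected on 4 arrays. Its signals were 18.8 to 52.9 on the 5 arrays of chip 1 and 6.65 to 12.0 on the 3 of chip 2, and its log2 for media supernatant over unused media went from −0.13 to 0.53 when only chip 1 was used.

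Among the LXR target genes Lpcat3 rose with cardiomyocyte media. Lpcat3 inserts polyunsaturated fatty acids into membrane phospholipids, and its signals were 1058, 1067 and 745 with unused media, 1810, 1532 and 1835 with cardiomyocyte media, and 1334 and 1414 with media supernatant. The 3 groups did not overlap, and cardiomyocyte media was the highest (1.81-fold over unused media, log2 0.85, SE 0.19, adjusted p = 0.0171). Media supernatant was at log2 0.53 over unused media (adjusted p = 0.344). A dimmer Lpcat3 probe gave 0.09 and −0.01 in these comparisons, with an SE of 0.16 and 0.17, so the rise rested on 1 of its 2 probes, and with probes averaged it came to 0.47 and did not pass.

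Pltp, the phospholipid transfer protein, had signals of 55.1, 67.8 and 24.3, then 82.9, 91.1 and 130, then 106 and 57.6 in the same order (log2 0.89 for cardiomyocyte media over unused media, adjusted p = 0.0863). Abcg4, an ATP-driven sterol exporter, was detected on 4 arrays at 11.0 to 43.7 and did not pass. Apoe, the apolipoprotein that accepts exported cholesterol, was not well above background on any unused array and was detected on 2 arrays, at signals of 3.66 to 6.21, 7.33 to 19.2 and 13.6 to 17.3 in the 3 groups, too close to background for a fold.

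Unused media was on chip 1 alone, so the counts were also made with chip in the model. Chip 1 had array backgrounds of 90.5 to 95.1 and chip 2 of 48.1 to 49.4, and 371 genes differed with chip when chip was a block in the model. With chip as a block, 10 of the 27 genes were higher with media supernatant than with unused media (0.675% of all genes), with Lss (log2 1.38, adjusted p = 0.0156), Tm7sf2 (1.21, 0.0108) and Nsdhl (1.66, 0.0108) added and Sqle lost (adjusted p = 0.0751). With the same block 10 were higher with media supernatant than with cardiomyocyte media (2.93% of all genes): Mvd, Fdps, Sqle, Lss, Tm7sf2, Msmo1, Nsdhl, Hsd17b7, Sc5d and Insig1. Lpcat3 alone stayed past the threshold for cardiomyocyte media over unused media (adjusted p = 0.0471, 2.58% of all genes), while Dhcr7 (0.0703) and Fdps (0.138) did not pass.

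Within chip 1, which has 1 array of each treatment, 14 of the 15 enzymes were above 0 for media supernatant over cardiomyocyte media (median log2 0.54), and within chip 2 also 14 (median 0.87), with Ebp below 0 on both. The 11 other listed genes measured within each chip had medians of 0.05 and 0.12. Pltp changed direction between the chips, at 0.30 on chip 1 and −0.81 on chip 2.

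**Figure D5:**
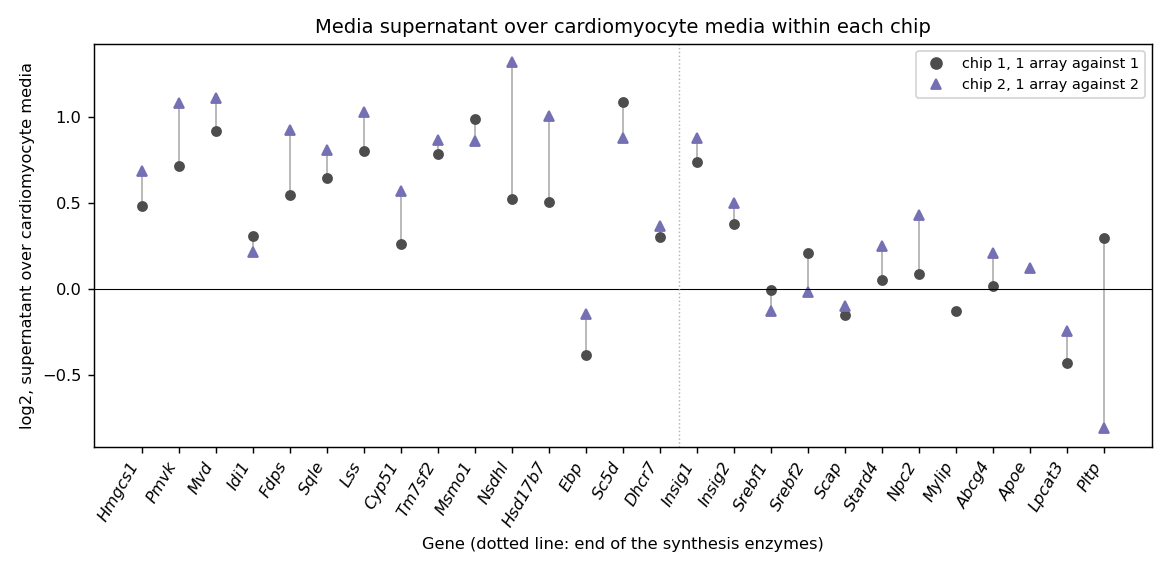
Log2 difference of media supernatant over cardiomyocyte media (y axis) computed within chip 1 (circles) and within chip 2 (triangles) for the 27 genes tested (x axis; Mylip and Apoe have 1 chip each), with the synthesis enzymes left of the dotted line. Apart from Ebp, the enzymes lie above 0 on both chips, while genes to the right of Insig2 scatter around 0.

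Lists of related genes were set beside the members. Lbr, a sterol synthesis gene outside the list, did not pass in any comparison. Its log2 was −0.13 for media supernatant over unused media and −0.30 over cardiomyocyte media. Nor did any of 4 SREBP processing genes tested or 3 other LXR partners and targets pass. Their median log2 was −0.06 and 0.13 for media supernatant over unused media. None of the 8 tested genes of the isoprenoid branch, which takes farnesyl diphosphate to ubiquinone, dolichol and prenylated proteins, passed in any comparison. Their median log2 was −0.13 for media supernatant over unused media. There, 0 were past an unadjusted p of 0.05, beside 5.48% of all genes higher and 6.4% lower. Over cardiomyocyte media 1 was higher, beside 7.51% of all genes. Of all genes, 0.732% to 4.36% passed in each direction of the 3 comparisons. A count of 0 in lists this small is near those shares and does not set these genes apart. Of 11 fatty acid genes that SREBP can activate, 1 rose with media supernatant over unused media (9.09%, against 0.732% of all genes). It was the desaturase gene Scd2 (log2 0.95, adjusted p = 0.0457). All 11 had a log2 above 0 there (median 0.62), beside 4405 of all 8885 genes. With cardiomyocyte media over unused media, Scd1 (0.85), Scd2 (1.17) and Fads2 (1.17), all desaturases, rose, and Me1, a source of NADPH, fell by 1.10. These are 27.3% and 9.09% of the 11, beside 4.01% of all genes higher and 4.36% lower. Acly, which supplies cytosolic acetyl-CoA, and Me1 were higher with media supernatant than with cardiomyocyte media (log2 0.84 and 1.23). They are 18.2% of the 11, beside 1.76% of all genes higher. These calls were less stable than the values. That of Scd2 with media supernatant was lost in 15 of 23 alternatives, among them when any 1 array other than replicate 1 of cardiomyocyte media was left out (log2 0.69 to 1.22), and that of Fads2 in 11 of 22, among them without 6 of the 8 arrays (0.80 to 1.28). Fads2 came to a log2 of 0.65 without background correction. Without either supernatant array, Acly and Me1 did not pass for media supernatant over cardiomyocyte media. Without replicate 2 of cardiomyocyte media Acly and Scd1 did not pass, nor did Me1 without replicate 3 of cardiomyocyte media, Me1 without replicate 1 or 2 of unused media or Scd1 without replicate 2 or 3.

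Among sterol carriers, lipoprotein receptors and sterol ester enzymes outside the list, 4 of 15 genes tested rose with cardiomyocyte media over unused media and 1 fell, beside the 4.01% and 4.36% of all genes. Gramd1b, which carries cholesterol from the plasma membrane to the endoplasmic reticulum, stood at signals of 11.5 to 24.1 on the unused arrays, 107 to 125 on those of cardiomyocyte media and 29.9 to 37.3 on those of media supernatant. It rose over unused media with cardiomyocyte media (log2 1.91, adjusted p = 9.8e-05) and was lower with media supernatant than with cardiomyocyte media (log2 −1.42, adjusted p = 0.00281), and without background correction these values were 1.03 and −0.81. Cav1, the coat protein of cholesterol-rich caveolae, changed the same way (1.08 and −1.31), and Stard5, a sterol-binding carrier, the opposite way (−0.997 and 0.963). Vldlr, a lipoprotein receptor, and Nceh1, a hydrolase of cholesterol esters, rose with cardiomyocyte media over unused media (1.41 and 0.78). Nceh1 did not pass without replicate 1 or 2 of unused media or replicate 2 or 3 of cardiomyocyte media (0.66 to 0.78), nor Stard5 over cardiomyocyte media without either supernatant array (0.94 and 0.99).

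All 8 fibroblast markers were detected on every array, which bears on the cell type. The sample labels, followed here, name NIH 3T3 fibroblasts. The study's methods also describe fibroblast arrays in such media, 3 a group but 2 with media supernatant. Its data statements, however, list this series under the cardiomyocytes. The marker signals summed to 17133 to 23024 for unused media, 23581 to 31530 for cardiomyocyte media and 21283 to 27344 for media supernatant. The markers did not move together: the collagen gene Col3a1 rose over unused media with cardiomyocyte media (log2 1.19, adjusted p = 0.000941) and media supernatant (1.05, 0.0136), while S100a4 fell with media supernatant over unused media (log2 −1.98, adjusted p = 0.0042) and over cardiomyocyte media (−1.55, 0.0032). Of 9 cardiomyocyte markers, 8 had a probe and 1, Myl4, was detected on every array, at signals of 108 to 249. On at least 1 array of unused media, cardiomyocyte media and media supernatant, 3, 4 and 1 of the 8 were detected. Their summed signals were 199 to 407, 199 to 298 and 170 to 171, and Actc1, Ryr2, Tnni3 and Pln were detected on no array. In these bulk samples, fewer cells of a type and less RNA per cell cannot be told apart.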

How the data were processed

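The 8 samples of NIH 3T3 RNA, hybridised to Illumina MouseRef-8 bead arrays, were grouped by their labels. Per the submitters' processing notes the authors used BeadStudio 3.3, and they deposited non-normalized probe intensity values on the linear scale together with a detection p-value per probe. A deposited table of intensity values after cubic spline normalization by the authors was used as an alternative. In R 4.3.3 with limma 3.58.1, normexp background correction (offset 16, controls inferred from the detection p-value) was followed by quantile normalization and log2 transformation. Printed signals have that offset subtracted. Of 25697 probes, 23978 had 1 gene name and 1719 none. A probe was used if 2 or more arrays detected it at a p-value under 0.05, and each gene was represented by its brightest probe. Of 42 probes of the listed genes, 35 passed, and 8 genes had more than 1 probe. A linear model with 1 coefficient for each group, empirical Bayes moderation and Benjamini-Hochberg adjustment gave the 3 comparisons. On arrays, precision is limited by their number. On simulated data with 8885 genes, a simulated log2 change of 1 was recovered for 78, 51 and 54 of 100 genes in the comparisons of cardiomyocyte media over unused media, media supernatant over unused media and media supernatant over cardiomyocyte media. The simulated noise was independent for each gene and array and held no chip difference, so these rates do not cover the layout of the chips. The listed genes and the related lists were chosen with earlier results of these data known. Every listed gene with a probe is named, those that passed with the value of every array, and of the related lists and cell markers the genes that passed. Promoter windows were taken from RefSeq (GRCm38.p6). The alternatives tried were other background corrections and offsets, cyclic loess and median scaling, the authors' normalized values, other detection filters and probe rules, trend, robust and array weight settings, fitting the compared groups alone, chip or replicate number as a block, arrays of 1 chip, and leaving out each array in turn.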

Additional observations from a re-analysis of the deposited data

How the results depend on the processing

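No gene of the list that passed changed direction in any alternative, but of 325 checks of a passing gene under another setting, 199 kept the call and 126 lost it. For the named genes of related lists 282 of 347 kept it, 65 lost it and 0 changed direction. Among the listed genes, Hsd17b7 and Mvd over cardiomyocyte media lost the call in 16 and 14 of 24 settings. Fdps with cardiomyocyte media lost it in 15 of 23, and Sqle and Insig2 with media supernatant over unused media in 13 of 23 each. In that last comparison Fdps and Mvd lost it in only 3 of 23 each. The 8 genes that rose with media supernatant over unused media became 3 with the authors' normalized values, 13 with array weights and 0 on chip 1 alone, and 0 to 12 when 1 array was left out. The 3 for cardiomyocyte media over unused media became 1 with chip as a block and 0 on chip 1 alone, and 0 to 4 when 1 array was left out. The 3 for media supernatant over cardiomyocyte media became 8 without background correction, 9 with an offset of 50, 9 with trend and robust settings, 7 with detection on all arrays, 10 with array weights, 10 with chip as a block, 1 with median scaling, 1 with the authors' values, 1 in a fit of the compared groups only, 0 on chip 1 and 1 on chip 2, and 0 to 5 when 1 array was left out. Counts of higher genes over all genes also moved. For media supernatant over unused media 65 became 32 with the authors' values and 111 with array weights. For cardiomyocyte media over unused media 356 became 229 with chip as a block. For media supernatant over cardiomyocyte media 156 became 215 without background correction, 241 with array weights and 260 with chip as a block. That count was 97 with median scaling and 111 with the authors' values. With replicate number as a replicate block, 3 genes rose with media supernatant over unused media and 1 over cardiomyocyte media, beside 27 and 123 of all genes. The labels give no pairing behind the numbers. The correlation of same-numbered arrays ran from −0.18 to −0.09 for pairs with unused media. It was 0.71 and 0.49 for the pairs of cardiomyocyte media and media supernatant, which also shared a chip. Replicate 3 of cardiomyocyte media and replicate 2 of media supernatant, on the same chip under different numbers, gave 0.46. The median log2 over the list was 0.22 for cardiomyocyte media over unused media, and came to 0.48 with median scaling, 0.41 with chip as a block, 0.34 on chip 1 alone and 0.22 to 0.34 without 1 array. For media supernatant over unused media it was 0.75, and came to 0.51 without background correction, 0.57 with an offset of 50, 1.08 with median scaling, 0.63 without the detection filter, 0.84 with detection on all arrays, 0.63 with array weights and 0.64 with the replicate block. For media supernatant over cardiomyocyte media it was 0.46, and came to 0.34 without the detection filter, 0.56 with detection on all arrays, 0.36 with probes averaged, 0.34 on chip 1 alone and 0.32 to 0.58 without 1 array. The causes of these changes were not tested. Low signal limits Idi1, Tm7sf2, Mylip, Abcg4 and Apoe, detected on 7, 5, 4, 4 and 2 arrays.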
